A study of Homo sapiens with 8 samples.

Results

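The comparison set arrays whose sample number was 3 or 4 against arrays whose sample number was 1 or 2, in both sorted fractions of one lymphoma cell line. All 8 arrays of the series entered it, 4 on each side, and each side held 2 cycling and 2 quiescent arrays. The cells were RL, an established human B cell lymphoma line with the genotype t(14,18)+, grown as multicellular aggregates of lymphoma cells (MALC). After 14 days the aggregates had been treated with the RNA dye pyronin Y and sorted by flow cytometry. Pyronin Y bright cells gave the cycling arrays and pyronin Y dull cells gave the quiescent arrays, and 30 ng of total RNA went into each biotin labelling for Affymetrix U133+ 2.0 arrays. The numbers 1 to 4 are each borne by 1 cycling and 1 quiescent array. The labels give no treatment, genotype, age of culture or other detail that separates the numbers, and do not say whether arrays of the same number came from 1 culture. All arrays are of a single line. The sides were chosen by a pattern already seen in these same log2 intensities, in the difference that is described, so the counts and adjusted p-values of the difference between sides are given below as a description of these arrays and not as a test.

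Type I interferons are secreted proteins that bind a receptor of IFNAR1 and IFNAR2 on the same or a neighbouring cell. The receptor acts through the kinases JAK1 and TYK2 on a transcription factor complex that holds IRF9 and binds the interferon-stimulated response element, a pair of GAAA-like repeats in the promoters of many genes. The products of these genes block viruses at entry, translation and replication, sense foreign RNA, or limit the response itself. B cells and B cell lines carry the receptor and can run this programme at a low tonic level in culture.

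Most of the genes called higher on the arrays of samples 3 and 4 were of this programme. Of 11678 genes tested, 27 were higher at an adjusted p under 0.05 (0.231% of the genes tested) and none was lower, in limma's moderated test with sorted state as covariate. At an unadjusted p under 0.05, 385 genes were higher (3.3%) and 440 lower (3.77%), 7.06% in all. Among the 27 genes, 20 belonged to a list of interferon-stimulated genes; the other 7 were ADAR, LAP3, AIM2, TNFSF10, IFI35, SLFN5 and IL4I1. The difference ran from 0.59 (log2; ADAR, 1.51-fold) to 2.63 (MX1, 6.20-fold) with a median of 1.57. The call ended between AIM2, with an adjusted p of 0.0485 by limma, and OAS1 and GALNT9, with 0.0532 and 0.0538. The number of genes called rested on single sample numbers: no gene was called without number 3 or without number 4, and 462 higher and 209 lower genes were called without number 2. Of the 27 genes, 22 stayed called with the sample number as a random block, 20 with no filter on dim genes and 1 (PLSCR1) without the trend and robust options of the variance model.

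The promoter sequences of 6 of the genes are shown because they carry the repeat through which interferon-responsive genes are known to be read, and the array data then give the levels of those same genes. Each is a stretch of the promoter in RefSeq, build GRCh38.p14, written 5′ to 3′ on the gene's own strand, with each match to GAAA, any 2 bases and GAAA again, or to the reverse complement of this motif, in capitals.
IFIT1, chr10:89392467-89392569, plus strand: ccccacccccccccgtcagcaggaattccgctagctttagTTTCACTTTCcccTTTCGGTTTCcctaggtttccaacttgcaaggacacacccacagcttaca
IFI44L, chr1:78620244-78620424, plus strand: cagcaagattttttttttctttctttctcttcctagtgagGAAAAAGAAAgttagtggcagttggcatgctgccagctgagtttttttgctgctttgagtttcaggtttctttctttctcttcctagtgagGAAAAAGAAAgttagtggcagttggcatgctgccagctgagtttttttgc
IFI44, chr1:78649731-78649788, plus strand: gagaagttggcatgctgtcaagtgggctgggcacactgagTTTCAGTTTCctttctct
EPSTI1, chr13:42992242-42992331, minus strand: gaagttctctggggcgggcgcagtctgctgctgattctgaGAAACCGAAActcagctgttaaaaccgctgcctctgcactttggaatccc
DDX60, chr4:168318756-168318880, minus strand: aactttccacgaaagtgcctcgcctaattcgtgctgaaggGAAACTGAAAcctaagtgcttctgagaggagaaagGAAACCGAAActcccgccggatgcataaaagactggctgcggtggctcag
ISG15, chr1:1013344-1013439, plus strand: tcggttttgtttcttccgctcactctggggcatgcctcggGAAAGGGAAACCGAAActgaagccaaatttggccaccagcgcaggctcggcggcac
The window searched ran from 250 bases before the first listed start of a gene to 50 bases after it, on both strands. In IFI44 the match began 18 bases before the start, and in EPSTI1 50 bases before it. IFIT1, IFI44L and DDX60 each held 2 separate matches, and in ISG15 the 2 matches overlapped. MX1 held 1 match, beginning 11 bases after its listed start. Of the 27 genes 24 had a promoter entry, and 16 of these held the motif (66.67%), against 996 of all 27305 promoters (3.65%) and 267 of the 9467 tested genes with an entry (2.82%). Within the interferon list, 24 of 35 genes with an entry held it (68.57%). CMPK2, RSAD2, SAMD9L, IL4I1, IFI35, PARP9, UBE2L6 and ADAR held no match in this window. TTCNNNGAA, the palindrome known from genes that respond to interferon gamma, was found in 5 of the 24 (20.83%) and in 7.88% of all promoters. The GAA that ends it can be the start of the first motif, so matches of both can overlap.

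The largest differences among the 27 genes were in antiviral effectors. MX1, a dynamin-like GTPase that traps incoming viral nucleocapsids, had intensities of 991, 3046, 13579.9 and 13594 on the cycling arrays of samples 1 to 4, and 2741, 3950.3, 15888 and 16420.3 on the quiescent arrays. All 4 arrays of samples 3 and 4 lay far above all 4 of samples 1 and 2, and the difference was 2.63 ± 0.28 (log2, SE, n = 4 arrays a side). RSAD2, the radical enzyme viperin that makes a chain-terminating nucleotide, was at 143, 306, 1211 and 874 on the cycling arrays and at 386, 511, 1726 and 1653 on the quiescent arrays, a difference of 2.11 ± 0.24. Its neighbour on chromosome 2, CMPK2, a nucleotide kinase, was at 139, 515, 1105 and 1545 and at 363, 659, 1853 and 2123. In both genes, as in MX1, sample 1 was lowest and sample 2 next in each fraction.

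IFIT1, which binds RNA whose cap lacks a methyl mark, had intensities of 68.0, 297, 1215 and 882 on the cycling arrays and 179, 448, 1215 and 1016 on the quiescent arrays (2.42 ± 0.42). Its neighbour and partner IFIT3 had 209, 265, 635 and 568, and 317, 504, 1284 and 956 (1.41 ± 0.20). The sides of both genes were fully separate. IFIT2, another gene of this group on chromosome 10, did not separate on its brightest probe set. There its quiescent arrays read 487, 2029, 2052 and 1844, so that only sample 1 was low, and its cycling arrays read 126, 596, 1012 and 999. A dimmer IFIT2 probe set (0.95, not called) had no overlap in either fraction, narrowly so on the cycling arrays (188 against 188.44). IFITM1, a membrane protein that hinders viral entry, differed by 0.91 ± 0.13, from 4107 to 5704 on the arrays of samples 1 and 2 and from 7583 to 10437 on those of samples 3 and 4.

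IFI44L and IFI44, adjacent genes on chromosome 1 whose products limit viral spread and dampen the response, moved alike. IFI44L was at 762, 2993, 11204 and 12344 on the cycling arrays of samples 1 to 4 and at 4796, 5525, 18950.4 and 18858 on the quiescent arrays. IFI44 was at 571, 1764, 6630.3 and 6260.3, and at 2100.0, 2383, 9336 and 9684. Their differences were 2.42 ± 0.34 and 2.38 ± 0.27 (log2), and in each the cycling array of sample 1 was the lowest of the 8.

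**Figure D1:**
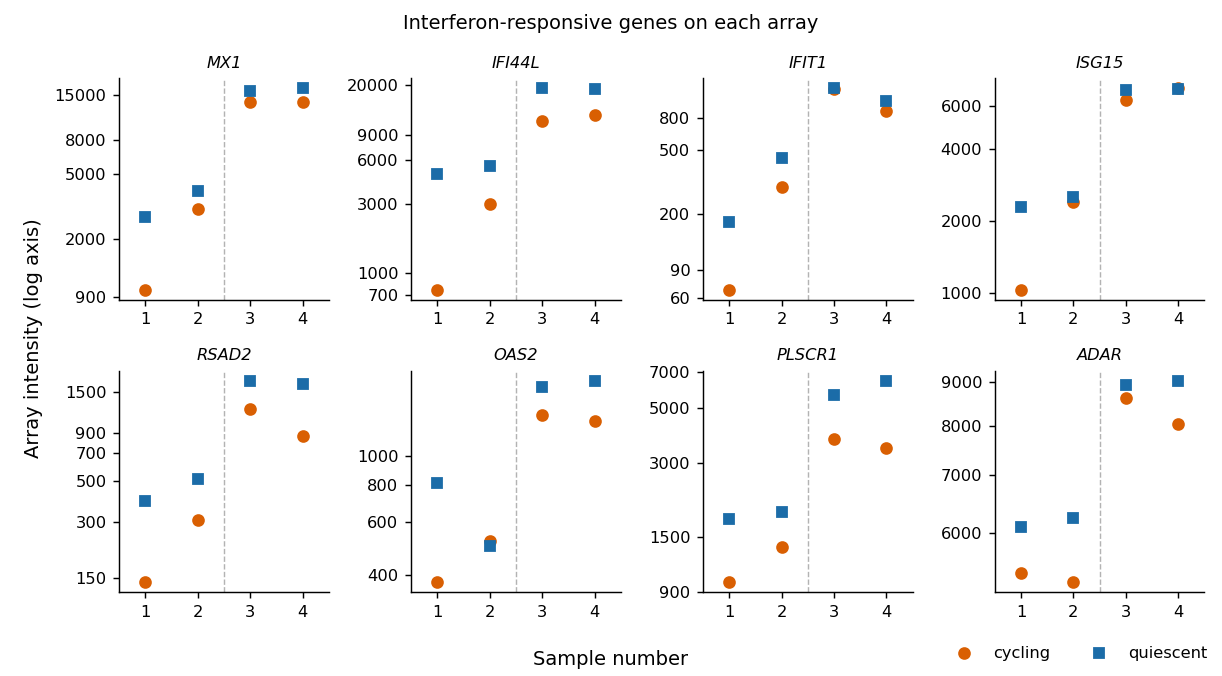
Intensities of 8 interferon-responsive genes on each array (y, log axis, scale set per gene) by sample number (x), with circles for cycling and squares for quiescent arrays, 1 point per array; the dashed line parts samples 1 and 2 from samples 3 and 4. In every panel all 4 arrays right of the line lie above all 4 left of it, by 2.63 (log2) for MX1 and 0.59 for ADAR.

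Of genes that act in ISG15 conjugation, 3 were called. ISG15, a ubiquitin-like protein attached to others during the response, was at 1034, 2398, 6387 and 7119 on the cycling arrays and 2288, 2509, 7023 and 7095 on the quiescent arrays (1.83 ± 0.22). UBE2L6, the enzyme that passes ISG15 on to its targets, was at 444, 909, 1336 and 1354, and at 665, 775, 1738 and 1665 (1.16 ± 0.20). Its call was lost with the sample number as a random block and without 7 of the 8 arrays in turn. The ligase HERC5 was under the filter on dim genes, with a mean intensity of 22.33 on samples 3 and 4 and 22.24 on samples 1 and 2. USP18, which removes ISG15 and also blocks signalling at the receptor, was at 102, 256, 617 and 677, and at 105, 293, 697 and 652 (1.97 ± 0.33). For USP18 sample 1 was lowest and sample 2 next in both fractions, and the 4 arrays of samples 3 and 4 lay close together in no common order.

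Genes that sense or act on double-stranded RNA or DNA were also among those called. OAS2, which makes the second messenger that switches on RNase L, was at 381, 519.6, 1367 and 1303 on the cycling arrays and at 809, 502, 1686 and 1775 on the quiescent arrays (1.51 ± 0.18). Its neighbour OAS1 had a difference of 1.61 ± 0.29 on its brightest probe set, which did not pass the threshold. The cycling arrays of that probe set ran 542, 1898, 3435 and 4007. A dimmer OAS1 probe set differed by 2.26, with an adjusted p of 0.00502 by limma over all probe sets. EIF2AK2, the kinase PKR that halts translation on double-stranded RNA, was at 1769, 2762, 4322 and 4451, and at 3101, 3911, 7437 and 6514 (0.99 ± 0.15). Both fractions gave the same separation of the sides for EIF2AK2, 0.99 on cycling and 1.00 on quiescent arrays.

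DDX60, a helicase, read 63.9, 90.7, 391 and 476 on the cycling arrays and 157, 229, 541 and 632 on the quiescent arrays (2.06 ± 0.26). AIM2, a sensor of cytosolic DNA that was the single gene called from the list of other innate sensors, read from 309 to 571 on samples 1 and 2 and from 809.9 to 946 on samples 3 and 4 (0.96 ± 0.17). Its call was lost with the random block and without each of the 8 arrays in turn. ADAR, which edits adenosine in double-stranded RNA, had the smallest difference of the 27, with 5262 to 6242 on one side and 8034 to 9022 on the other. The 4 values on each side of ADAR were close, so a 1.51-fold difference still left the sides apart. The ADAR call was lost with centred arrays, with the random block and without 6 of the 8 arrays in turn. The calls of LAP3, TNFSF10 and USP18 were also lost without 6 of the 8 arrays in turn.

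Among the remaining genes called, PLSCR1, a membrane scramblase that also restricts viruses, had the smallest adjusted p (0.000385, limma), with 986, 1369, 3766 and 3452 on the cycling arrays and 1778, 1898, 5679.5 and 6474 on the quiescent arrays. The ADP-ribosyltransferases PARP9 and PARP12 differed by 1.34 ± 0.19 and 1.53 ± 0.20. The difference was 2.07 ± 0.24 for EPSTI1, 1.85 ± 0.28 for SAMD9L, 1.57 ± 0.21 for LGALS3BP, 1.44 ± 0.17 for SLFN5 and 1.39 ± 0.20 for IFI35. TNFSF10, the death ligand TRAIL, was at 93.4, 144, 298 and 307 on cycling and 174, 223, 505 and 479 on quiescent arrays. IL4I1, a secreted amino acid oxidase, was at 46.2, 81.0, 229 and 284, and at 133, 206, 479 and 443. All 27 genes had samples 3 and 4 above samples 1 and 2 without overlap in both fractions, as did 438 of all genes tested (3.75%), while 500 were below in the same way (4.28%). In 26 of the 27 all 4 arrays of one side lay above all 4 of the other, which was so for 1.27% of all genes, with 1.24% below. The exception was LAP3, a leucine aminopeptidase, whose quiescent array of sample 3 (9893) lay under the cycling array of sample 1 (10399).

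Other probe sets gave the same direction for the genes called. Of the 27 genes, 11 had further probe sets past the filter, 19 in all, and each of the 19 had a positive difference, from 0.68 to 2.66 (log2) with a median of 1.28; 6 of them passed the threshold. Probe sets of 1 gene read the same RNA, so they are no replicates of it.

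On the brightest probe set of each gene, the whole interferon-stimulated list lay to one side. Of its 48 symbols, of which DDX58 and RIGI name the same gene, 44 were tested. All 44 had a positive difference, from 0.30 (IFITM2) to 2.63 (MX1), with a median of 1.42, against −0.02 for all genes tested. XAF1 (2.04) had dimmer probe sets past the filter at 0.77 and −0.34. In 40 of the 44 samples 3 and 4 lay above samples 1 and 2 without overlap in both fractions, as in 3.75% of all genes. The 4 others, on their brightest probe sets, were IFIT2, OASL, RIGI and IFITM2. Dimmer probe sets of IFIT2 (0.95) and OASL (0.98) did not overlap in either fraction, and those of RIGI did. Centring the arrays on their medians raised the median of all genes to 0.09 and that of the list to 1.53, and 32 of its genes then passed in place of 20, among 48 of all genes in place of 27. Without sample number 1 the median of the list was 1.04, and without number 2 it was 1.69; all 44 differences stayed positive without each of the 4 numbers. The members had been known from earlier results of these arrays, so the size of the list's difference is a description.

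Genes of the list that did not pass spanned small and large differences. IFI27, a mitochondrial protein much used as an interferon marker, differed by 2.55 ± 0.59, with 49.9, 210.5, 411 and 494 on the cycling arrays and 28.4, 248, 740.0 and 579.9 on the quiescent arrays. IFI6 differed by 1.93 ± 0.41 and IFIH1, the RNA sensor MDA5, by 1.40 ± 0.27. The transcription factors IRF7 and IRF9 differed by 0.94 ± 0.23 and 0.97 ± 0.25. In IRF7 the cycling array of sample 1 (469.9) stood under the 3 others (1141 to 1285), and on the quiescent arrays samples 3 and 4 (2390.2 and 2323) were apart from samples 1 and 2 (1139 and 1091). At the lower end, RIGI, another RNA sensor, differed by 0.41 ± 0.20, OASL by 0.39 ± 0.25, and IFITM3 by 0.43 ± 0.15. Dimmer probe sets of OASL (0.98) and RIGI (0.58 and 0.68) differed more, and none was called. IFITM2 and IFITM3 are close copies of IFITM1, so their probe sets may read more than one of them.

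Most receptor and signalling genes of the pathway showed no such distance. A list of 16 tested receptor and signalling genes, assembled after the values had been seen, had a median difference of 0.09 with none called. It also held IRF7 (0.94) and IRF9 (0.97). In 3 of the 16 samples 3 and 4 lay above without overlap in both fractions, as in 3.75% of all genes. IFNAR1 differed by 0.09 ± 0.15, IFNAR2 by −0.01 ± 0.15 and JAK1 by 0.09 ± 0.13. Of 19 genes for interferons themselves, 17 had a probe set, and 15 of these were under the filter on dim genes, at intensities of at most 158.29 on any array. The 2 that passed, IFNA4 and IFNL1, stood between 92.38 and 284.35 on the 8 arrays, and both had a difference of −0.35 with an SE of 0.29 and 0.33. Probe sets of such low intensity give no measure of whether a secreted interferon was present.

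Within a side, the numbers were not equal. On the cycling arrays the interferon-list genes of samples 1 and 2 lay a median of 0.917 apart (log2), with sample 2 the higher in 41 of 44 genes. Samples 3 and 4 lay 0.165 apart, with sample 4 the higher in 23 of 44. On the quiescent arrays the corresponding distances were 0.393 and 0.148, and sample 2 was above sample 1 in 32 of 44. The cycling array of sample 1 was the lowest of all 8 in 37 of the 44 genes, beside 2561 of all 11678 genes tested. Samples 3 and 4 thus sat close to each other, while sample 1 was lower than sample 2 and further from it, more so among cycling cells. With 2 numbers a side, a permutation over numbers cannot give a p-value below 0.333.

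Sums of squares over genes put these distances beside the sort. For the 44 interferon-list genes, the side took 68.02% of the variance, sorted state 13.75%, number within side 12.81%, side by state 2.00% and the rest 3.43%. For all genes tested the shares were 11.36%, 45.71%, 20.9%, 7.58% and 14.46%. The side was thus the largest share for the interferon-list genes and a small one across the array. There number within side took a larger share, but it and the rest cover more degrees of freedom than the side. Those shares therefore do not rank number within side above side. For 49 genes of G2 and M phase, sorted state took 89.7%.

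Most other gene lists had medians near that of all genes. Among the 35 lists with at least 10 tested genes, the medians outside the interferon list ran from −0.23 to 0.41 (log2), and AIM2, whose call did not outlast a left-out array, was the only gene called in them. MHC class I and peptide loading, a group that interferons are known to raise, had a median of 0.25: 18 of 19 genes were positive, 9 had sides without overlap in both fractions (3.75% of all genes did), and none passed. HLA-B differed by 0.50 ± 0.11 (17249, 21266, 27099 and 26003 on the cycling arrays; 34092, 24927, 41513 and 42955 on the quiescent arrays) and HLA-G by 0.74 ± 0.15. HLA class I genes are near copies and their probe sets can share signal. TAP1, the peptide transporter, differed by 0.14 ± 0.16 and its sides overlapped. B cell identity genes had a median of 0.13 over 35 genes, with none called and 8 above without overlap. The immediate early and stress of handling list had a median of 0.41 over 25 genes, none called. This median was 0.09 without sample number 1 and 0.72 without number 2.

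**Figure D2:**
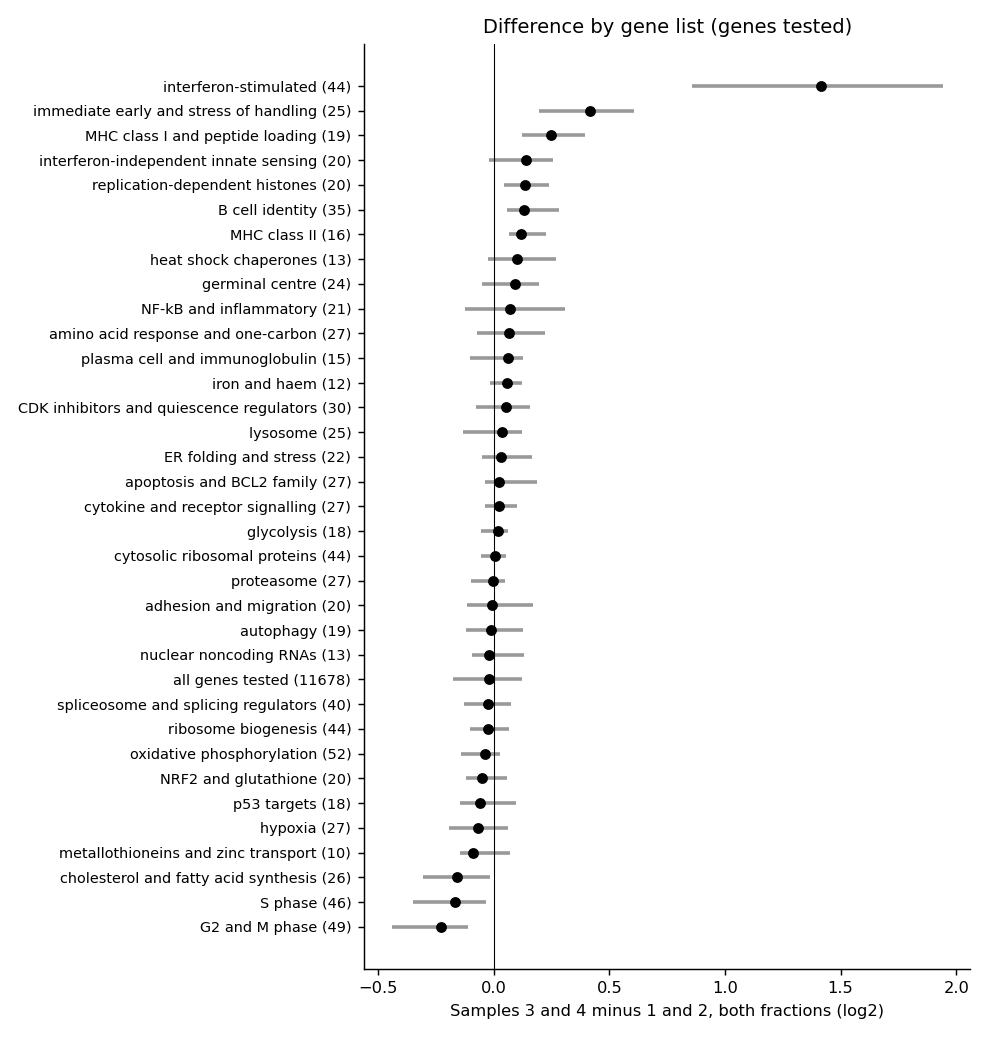
Median difference between samples 3 and 4 and samples 1 and 2 (x, log2, sorted state as covariate) by gene list (y, number of genes in brackets). Shown are all genes tested and each list with at least 10 genes tested, save that of receptor and signalling genes. Points are medians over genes and bars run from the lower to the upper quartile over genes. The interferon-stimulated list stands at 1.42 and the others between −0.23 and 0.41.

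No gene was called lower on samples 3 and 4. Among genes with a mean intensity of at least 200 on the higher side and no overlap in either fraction, 40 were higher by 2-fold or more, 27 of them in the interferon list, and 12 were lower by 2-fold or more. Of all genes tested, 72 were higher by this much (0.617%) and 81 lower (0.694%). Most of the 12 were dim. GALNT9, a glycosyltransferase, had the smallest adjusted p among lower genes: 205, 241, 59.2 and 67.4 on the cycling arrays and 309, 376, 76.0 and 179 on the quiescent arrays. RAB15, a small GTPase of endosomes, was at 603, 401, 307 and 276, and at 269, 157, 94.7 and 64.5. KIF14, a mitotic kinesin, was at 859, 1185, 827 and 842 on the cycling arrays and at 234, 471, 72.1 and 106 on the quiescent arrays. In KIF14 the sides were close among cycling cells and wide apart among quiescent cells, with a difference of −0.27 and −1.93.

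The interferon-responsive difference was present in both sorted fractions. For the 27 genes called, the median difference was 1.63 on the cycling arrays and 1.48 on the quiescent arrays, and for the whole list it was 1.50 and 1.30. Within cycling arrays alone, MX1, PLSCR1 and DDX60 passed (0.0257% of the genes tested), and within quiescent arrays none did. The interaction, which is the sort difference on samples 3 and 4 minus that on samples 1 and 2, was not used to choose the sides and was tested. It was called for none of the 11678 genes by limma, with a smallest adjusted p of 0.999939; 304 genes had an unadjusted p under 0.05 (2.6%). Among the 27 genes the interaction was negative in 19, and the smallest unadjusted p was 0.0909 (DDX60, −0.88). Over the 44 tested genes of the list the median interaction was −0.22, against 0.05 without sample number 1 and −0.58 without number 2. On simulated data, with independent noise on each array, the interaction fit recovered 30% of 4-fold and 3% of 2-fold changes. In such data interactions of these sizes would mostly have been missed.

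**Figure D3:**
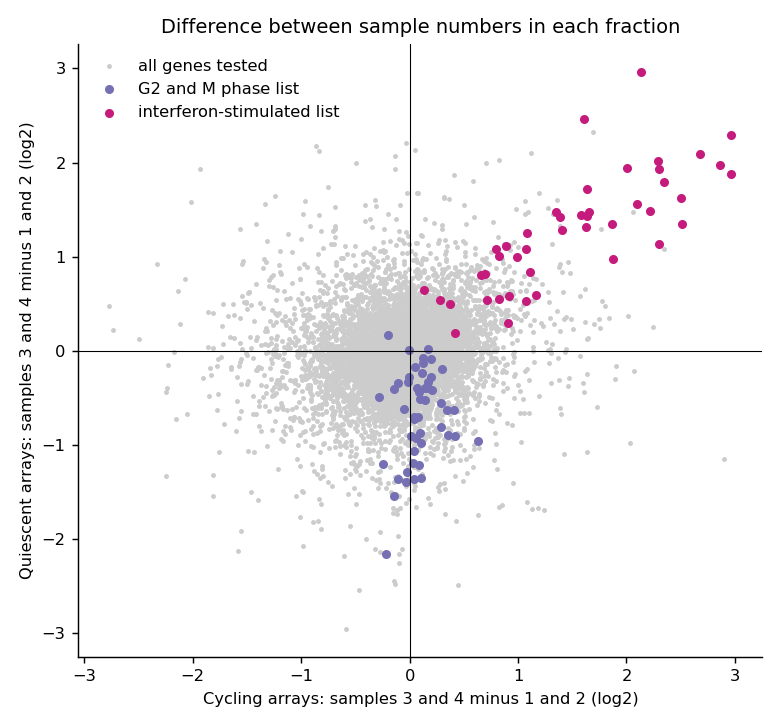
Difference between samples 3 and 4 and samples 1 and 2 for each gene tested on the cycling arrays (x, log2) and on the quiescent arrays (y, log2), 2 arrays a side in each; grey points are all 11678 genes tested, and the interferon-stimulated (44) and G2 and M phase (49) lists are coloured. The interferon genes lie up and to the right, at medians of 1.50 and 1.30, and the G2 and M genes lie below 0 on the quiescent axis, at medians of 0.08 and −0.62.

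The sorted fractions themselves differed in interferon-responsive genes, on a contrast that the choice of sides did not use. With the side as covariate, 20 of the 44 list genes were higher on quiescent arrays at an adjusted p under 0.05 by limma and none was lower, beside 12.6% of all genes higher and 15.5% lower. PLSCR1 was higher by 0.71 ± 0.14 (adjusted p = 0.00261), EIF2AK2 by 0.66 ± 0.15 (adjusted p = 0.00677), IFIT3 by 0.82 ± 0.20 (adjusted p = 0.00883) and IFI44L by 1.23 ± 0.34 (adjusted p = 0.0181). ISG15 (0.34 ± 0.22) and USP18 (0.09 ± 0.33) did not pass. Without the side term 3 of the 44 passed. Centring the arrays moved the median sort difference of all genes from 0.08 to −0.33 and left 1 of the 44 passing, against 3.05% of all genes; with quantile normalization 19 passed. The quiescent arrays held the higher overall medians, 103 to 113 against 71.9 to 97.9 on the cycling arrays, and the part of this in the sort difference was not tested. The median sort difference of the list was 0.46 on samples 3 and 4 and 0.75 on samples 1 and 2.

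**Figure D4:**
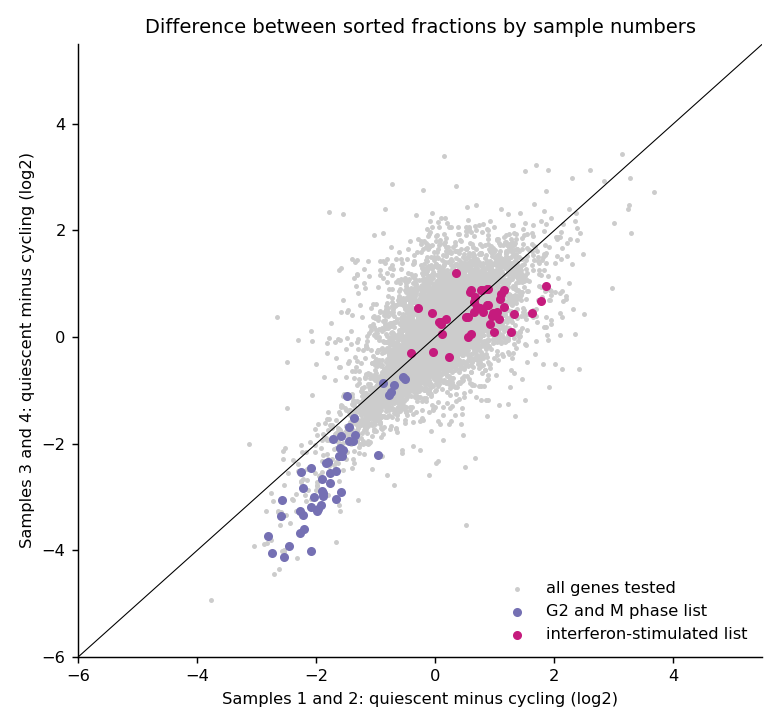
Quiescent minus cycling difference for each gene tested on samples 1 and 2 (x, log2) and on samples 3 and 4 (y, log2), with the line of equal difference; grey points are all genes tested and the interferon-stimulated and G2 and M phase lists are coloured. G2 and M genes lie under the line, at medians of −1.80 and −2.56, and interferon genes at 0.75 and 0.46.

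Cell cycle genes showed a second pattern, in the quiescent fraction. The sort parts cells by RNA content, and MKI67, the proliferation antigen, was at 2471, 1678, 1809.6 and 1639 on the cycling arrays and at 608, 406, 248 and 186 on the quiescent arrays (quiescent minus cycling −2.52 ± 0.24, adjusted p = 2.35e-05 by limma). CDKN1B, the inhibitor p27, was higher on quiescent arrays by 1.08 ± 0.17 (adjusted p = 0.000779 by limma). For 49 G2 and M genes the sides differed by a median of 0.08 on the cycling arrays and −0.62 on the quiescent arrays. Both quiescent arrays of samples 3 and 4 lay below both of samples 1 and 2 in 29 of the 49 genes, as in 2041 of all 11678; on cycling arrays this was so in 1 of the 49. The list was lower on quiescent than on cycling arrays by a median of −2.56 (log2) on samples 3 and 4, with 46 of 49 genes called by limma (8.72% of all genes), and by −1.80 on samples 1 and 2, with 43 called (4.11%).

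DLGAP5, a spindle protein, was at 4621, 3838, 4361 and 4702 on the cycling arrays, where the sides overlapped, and at 761, 765, 276 and 321 on the quiescent arrays, where they did not. NEK2, a centrosome kinase, was at 6547, 5814, 6105 and 6562, and at 1532, 1174, 506 and 531. BIRC5, the survivin subunit of the chromosomal passenger complex, was at 2626, 1764, 2124 and 1609, and at 675, 383, 119 and 109. In all 3 genes the sides overlapped on the cycling arrays and were apart on the quiescent arrays. None of their interactions passed the adjusted threshold: they were −1.46, −1.41 and −1.94 (log2) with unadjusted p of 0.000335, 0.000421 and 0.00115 by limma. TOP2A, the topoisomerase of dividing cells, was at 886, 509, 249 and 516 on the quiescent arrays, and the sides overlapped.

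Over the G2 and M list the interaction had a median of −0.75 and was negative in 47 of 49 genes; the exceptions were CENPA and PTTG1. In 20 of the 49 the unadjusted p was under 0.05 with a negative sign, beside 1.37% of all genes, and none was called. The median was −0.99 with centred arrays, where that of all genes fell to −0.25, and −0.78 with quantile normalization. It lay between −0.66 and −0.87 when each sample number was left out, and the genes at an unadjusted p under 0.05 then numbered 10 without number 4 and 29 without number 1. S phase genes had a median interaction of −0.32 over 46 genes, 34 of them negative, and −0.02 without sample number 2. The G2 and M genes lower on quiescent arrays are one coordinated programme, so their number does not count as independent evidence. In sorted bulk RNA, fewer cycling cells in a fraction and less of these transcripts per cell cannot be told apart.

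Sample 1 stood apart from the 3 others in single stress genes, in both fractions, and not across the heat shock chaperone list. Over the 13 genes of that list it was the lowest of its fraction in 6 on the cycling and 6 on the quiescent arrays, and sample 2 was the lowest in 7 and 3. Over the 25 genes of the immediate early and stress of handling list it was the lowest in 18 and 15. Among all 11678 genes it was the lowest in 3671 and 3189. Sample 1 was also the highest of its fraction in 49 and 40 of 52 oxidative phosphorylation genes, and the lowest in 0. Among all genes it was the highest in 3209 and 3794. Both of its arrays were the lowest of their fraction by at least 2-fold in 26 genes and the highest in 1. The same counts were 6 and 1 for sample 2, 9 and 0 for sample 3, and 5 and 0 for sample 4. HSPA6, a heat-inducible HSP70, was at 56.5, 1765, 1581 and 1639.8 on the cycling arrays and at 117, 1595, 964 and 864 on the quiescent arrays. BAG3, a cochaperone of HSP70, was at 289, 1785, 1314 and 1676, and at 246, 1269, 760.1 and 804. SERPINH1, the collagen chaperone HSP47, was at 224, 812, 899 and 727, and at 85.4, 309.6, 354 and 352. In these chaperone genes sample 2 lay with samples 3 and 4, unlike in MX1 or ISG15, where it lay nearer to sample 1.

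DNAJB1, an HSP40 that works with HSP70, was at 11074 and 11324 on the arrays of sample 1 and from 21255 to 28922 on the 6 others. The early response genes DUSP1, a phosphatase of MAP kinases, and IER5, which acts with heat shock factor, had the same shape. DUSP1 was at 1165, 3906, 3474 and 3679 on the cycling arrays and 1934, 4877, 5624 and 4744 on the quiescent arrays. IER5 was at 3989, 12984, 12125 and 11025, and at 5991, 14221, 13585 and 13128. These genes were chosen after their values had been seen. IFIT1, IFIT2, IFI27 and USP18 of the interferon list were also among the genes at least 2-fold lowest on both arrays of sample 1.

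**Figure D5:**
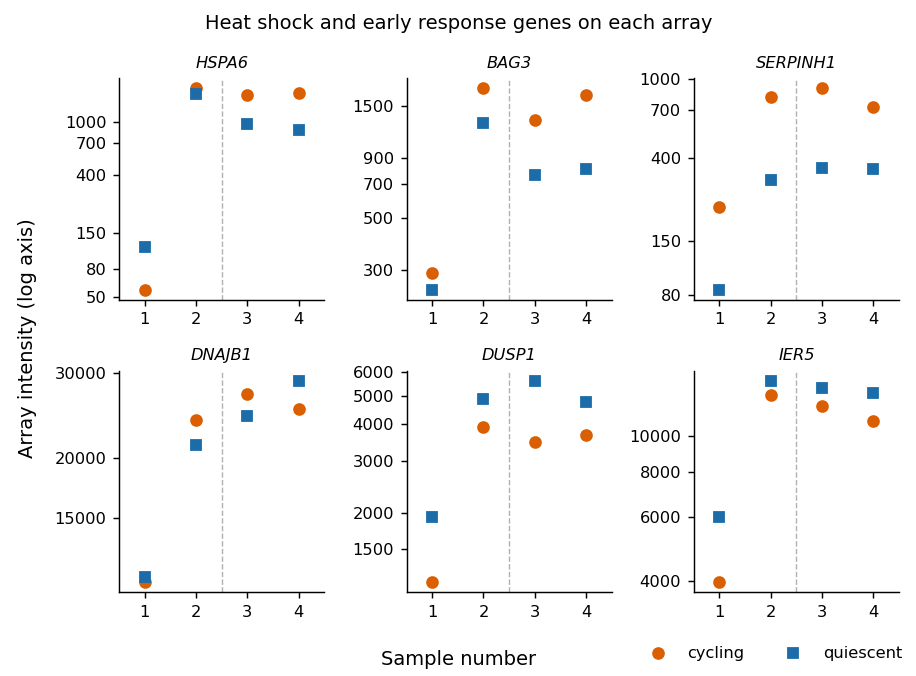
Intensities of 6 heat shock and early response genes on each array (y, log axis, scale set per gene) by sample number (x), with circles for cycling and squares for quiescent arrays, 1 point per array; the dashed line parts samples 1 and 2 from samples 3 and 4. Both arrays of sample 1 are the lowest of their fraction in each panel, for HSPA6 at 56.5 and 117, and sample 2 lies with samples 3 and 4.

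The line's own markers and the array controls were set beside these differences. MS4A1, which encodes CD20, stood between 21487 and 26572 on all arrays, and the summed B cell markers at 58830 to 62458 on samples 3 and 4 and 51025 to 62313 on samples 1 and 2. CD79A, a chain of the B cell receptor, differed by 0.32 ± 0.15 and PAX5 by 0.20 ± 0.15, neither called. Of 4 myeloid markers none passed the filter on dim genes, and their sum was 131 to 263 on samples 3 and 4 and 227 to 333 on samples 1 and 2. T cell markers, of which 2 of 4 passed, summed to 287 to 434 and 195 to 394, NK cell markers (1 of 4 passed) to 154 to 402 and 186 to 238, and stromal markers (2 of 4) to 255 to 490 and 305 to 477. Epithelial markers (0 of 3 passed) summed to 23.6 to 104 and 34.7 to 65.5. The 3′ to 5′ ratio of the ACTB control, a sign of RNA integrity and of labelling, was 1.80 to 2.62 (log2) on samples 3 and 4 and 1.90 to 2.80 on samples 1 and 2; with it as a covariate 76 genes were called higher and 10 lower, and all 27 genes stayed among them. By fraction the ACTB ratio did not overlap, at 1.80 to 2.26 on cycling and 2.38 to 2.80 on quiescent arrays. The GAPDH ratio ran from −0.15 to 0.03 on cycling and from 0.10 to 0.14 on quiescent arrays. The part of these ratios in the sort difference was not tested.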

How the data were processed

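Affymetrix U133+ 2.0 intensities of 8 arrays were taken as the authors deposited them, on a linear scale; the submitters' processing notes name MAS5. The mean of each array after trimming 2% of the probe sets at each end lay at 500.06 to 500.07, and this scaling was kept. Values under 1 (1020 values) were set to 1 before log2. Of 54613 non-control probe sets, 42898 were listed in the platform annotation, 41097 with 1 gene symbol and 1801 with several; 41043 were matched to RefSeq by Entrez identifier. The brightest probe set with 1 symbol stood for each of 19775 genes, and 8097 with a mean log2 value below that of the median non-control probe set (intensity 83.27) were left out. Some listed genes were not analysed here.

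The difference between sides was fitted with limma 3.58.1 in R 4.3.3 (lmFit and eBayes, trend and robust, sorted state as covariate), with Benjamini-Hochberg adjustment over 11678 genes. A fit of the 4 groups gave the differences within fractions, the sort difference on each side and the interaction. Lists were described by counts and medians. Python 3.11.15, pandas 2.3.3 and matplotlib 3.10.9 were used for promoters and figures. In a check on simulated data with 200 changed genes of 11678, the side fit recovered 89% of 4-fold and 50% of 2-fold changes, with 8 false calls. Its noise was drawn independently for each array, with no part shared by a sample number, so these rates may not hold for the real arrays. The members and lists were chosen with earlier results of these data known. Genes were named where they were among the 12 largest differences in either direction that passed under all 3 scalings without overlap in either fraction at a mean of at least 200, or the leading 4 of a list, or were MX1, IFI44L, ISG15, MKI67, TOP2A, CDKN1B, MS4A1, CD79A or PAX5; up to 6 interactions each way would have been named had any passed; all others were chosen after their values were seen. Nothing in the labels says that the samples of a group are separate cultures, so that p-values speak only for the spread among these 8 arrays, which may be technical; this number limits the precision. Alternatives were 2 other scalings, other filters and low-value treatments, all probe sets, the variance model, covariates, left-out arrays and numbers, and the sample number as a block.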

Additional observations from a re-analysis of the deposited data

Results flagged for a closer look

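In each fraction of 4 arrays, 148 groups of 4 values were examined for a single array far from the 3 others, and 18 were found; chance alone gives about 1 such group in 20. Most of these genes were chosen after their values were seen, so the chance rate is no yardstick for the 18. Stress and early response genes on sample 1 made up most of them. On the cycling array of sample 1, HSPA6 was at 56.5 against 1581.2 or more on the others, BAG3 at 288.9 against 1313.7 or more, DNAJB1 at 11074.5, SERPINH1 at 223.9, DUSP1 at 1164.6, IER5 at 3989.5 and IRF7 at 469.9, each the lowest. On the quiescent array of sample 1, SERPINH1 was at 85.4, DUSP1 at 1934.5, IER5 at 5990.7, EGR1 at 1104.9, IFIT2 at 486.6, BACH2 at 1390.3 and PAX5 at 1660.5, again each the lowest.

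Other arrays stood apart in single genes. The quiescent array of sample 2 was low for CD79A, at 4689.9 against 7794.7 or more, and for OASL, at 196.1 against 420.3 or more. The cycling array of sample 2 was high for KIF14, at 1184.8 against 858.8 or less. The cycling array of sample 3 was high for TAP1, at 794.6 against 605.5 or less.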

How the results depend on the processing

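Of the values tabulated here none changed sign past its threshold; list medians near 0 did change sign, as that of all genes from −0.02 to 0.09 with centred arrays, the MHC class I sort difference from 0.30 to −0.12 (centred), the interferon-list interaction from −0.22 to 0.05 without number 1, and the G2 and M difference on cycling arrays from 0.08 to −0.05 without number 2. Against 27 higher and 0 lower genes, centred arrays gave 48 and 1, the stricter filter 1 lower, adding 32 before log2 2 lower, the ACTB ratio as covariate 76 and 10, eBayes without trend and robust 1 higher (PLSCR1), and no covariate for sorted state 0. Leaving out arrays or numbers gave 0 to 462 higher and 0 to 209 lower. The interferon count of 20 became 32 (centred), 1 (no trend or robust), 33 (ACTB) and 0 (no state covariate), and 0 to 38 with arrays or numbers left out; its median of 1.42 became 1.04 to 1.69. Within cycling arrays, 3 became 25 and 1 lower (centred), 0 (quantile), 0 (no filter), 7 (stricter filter), 8 (adding 32), 0 (all probe sets) and 0 (no trend or robust), and 0 to 173 higher and 0 to 3 lower with arrays or numbers left out. Within quiescent arrays, 0 became 6 and 2 lower (centred), 2 and 7 lower (quantile), 2 and 6 lower (stricter filter), 1 (adding 32), and 0 to 76 and 0 to 25 lower with arrays or numbers left out. The interaction stayed at 0 except for 1 lower gene without number 2. The sort count of 20 interferon genes became 1 (centred) and 3 (no side term), both chosen after seeing the data. Fewer arrays enter where one is left out; the cause of the other shifts was not tested. Same-numbered arrays correlated at 0.3443, 0.196, 0.1104 and 0.0361 in their deviations, all positive. On sample numbers 1 and 2 each array correlated best with its own number. Of numbers 3 and 4 only the cycling array of number 3 did. The labels state no pairs and the main fits left the number out, so their SEs count the 4 arrays of a side as separate. With the number as a random replicate block (correlation 0.1859) 22 genes were called, losing ADAR, AIM2, LAP3, TNFSF10 and UBE2L6. With a fixed block the interaction was called for 0 genes by limma, with 508 at an unadjusted p under 0.05 against 304 without the block. Signal near the filter (intensity 83.27) limits the genes that encode interferons and the dim lower genes.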
